A study of Canis lupus familiaris with 18 samples.

Results

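The genes of the insulin-like growth factor (IGF) axis were examined in RNASeq libraries made from formalin-fixed, paraffin-embedded blocks of canine prosencephalic high grade oligodendroglioma (HGO), a malignant glial tumor of the forebrain. The members were picked by name: the ligands IGF1 and IGF2, the receptors IGF1R and IGF2R, the binding proteins IGFBP2, IGFBP3, IGFBP5 and IGFBP7, and the mRNA-binding proteins IGF2BP2 and IGF2BP3. Of these 10 genes, 9 matched a row among the 29993 genes counted, and IGFBP5 was not analysed here. IGF2 was put on the list because its level was known to be extreme in 1 library, so its levels are given as a description and without a test between groups. The 18 libraries comprised 11 labelled French bulldog and a comparison group of 7, of which 4 were labelled boxer and 3 Boston terrier. All of the libraries were labelled as the same tumor type, and the labels name no treatment, age or sex for any of them. The question the design asks is whether HGO of French bulldogs differs from HGO of the other short-skulled breeds.

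IGF1 and IGF2 are secreted peptides that activate IGF1R, a receptor tyrosine kinase whose signal runs through insulin receptor substrates to the phosphatidylinositol 3-kinase, AKT and mTOR kinases and favors growth and survival. IGF2R has no kinase domain and carries IGF2 and lysosomal enzymes to lysosomes, and the IGFBP family holds the ligands in tissue fluid and regulates their access to the receptor. IGF2BP2 and IGF2BP3 belong to a family of RNA-binding proteins named for the IGF2 message that they bind. The family is active in the embryo and returns in many tumors, and IGF2 is an imprinted gene of fetal growth.

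The count total of a library lay between 8212452 and 13169880. Levels are given as CPM, the count scaled to library size after TMM normalization, and 3 counts, taken as the smallest level that this depth could show, corresponded to 0.223 to 0.351 CPM. French bulldog 6 stood apart from the other libraries. It held 0 counts of OLIG2 and 2 of SOX10, the transcription factors that define the oligodendrocyte lineage, where each of the other 17 libraries held at least 1137 and 1986. The 9 macrophage and microglia markers summed to 5157 CPM in French bulldog 6, against 53.2 to 299 CPM in the other French bulldogs and 88.3 to 165 CPM in the comparison group. Of these 9 markers, 7 were the highest of all libraries there, whereas CX3CR1 was the lowest, with 24 counts, and P2RY12 held 66, both being markers of resident microglia. French bulldogs 2 and 8 share a case label and were the most alike of all 153 pairs of libraries. Their counts differed by more than sampling noise, which cannot decide whether both came from the same dog. They enter the main fit and the counts of French bulldogs as separate libraries. The sample numbers in the library names of the comparison group run from 18 to 21 in 4 libraries and from 1 to 3 in the other 3. The library names of French bulldogs 1 to 3 carry the numbers 1 to 3 as well. Whether French bulldogs shared a run with either series is not stated, so run and breed cannot be told apart. The libraries are of bulk tissue, in which fewer cells of a type and less RNA per cell cannot be told apart.

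IGF2 (ENSCAFG00000010090), the fetal growth ligand, was abundant in a single tumor. French bulldog 1 held 102043 counts of it, or 7570.1 CPM after normalization. The other 10 French bulldogs held between 6 and 49 counts, with a median of 2.35 CPM and a highest value of 4.98 CPM. The boxers held 24.1, 2.28, 0.476 and 0.216 CPM, and the Boston terriers held 0.0939, 1.67 and 0.413 CPM. French bulldog 1 thus accounted for 99.3% of the IGF2 summed over the 18 libraries, and no other gene among the 16495 that could be tested had as large a share in 1 library. The second highest library was boxer 1, with 241 counts, and the other 16 libraries held 49 counts or fewer. Without French bulldog 1, the French bulldog mean went from 690.2 ± 2282 CPM (SD, n = 11) to 2.22 ± 1.36 CPM (SD, n = 10), beside 4.17 ± 8.81 CPM (SD, n = 7) in the comparison group. The fitted log2 fold change of French bulldogs over the comparison group was 7.37 with French bulldog 1 and −0.91 without it. Boxer 1 held 82.4% of the IGF2 of the comparison group, and a fit without both libraries was not run. Without boxer 1 the comparison mean was 0.858 ± 0.896 CPM (SD, n = 6). All 11 French bulldogs lay above the median of the 7 comparison libraries, 0.476 CPM.

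The tested genes that lie beside IGF2 in mammals ranked 3 to 9 from the highest of 18 libraries in French bulldog 1. INS, the insulin gene, was listed at 0 in all 18 libraries. TH, the catecholamine enzyme on the far side of INS, reached 6 counts in French bulldog 1, where the highest of the other libraries reached 3. Of the 14 neighbours that matched, 6 were tested, and French bulldog 1 was the highest library for 0 of them. French bulldog 6 was the highest for 4. The rank of French bulldog 1 was 3 for KCNQ1, 5 for CD81, 6 for CTSD, 8 for TSSC4 and 9 for LSP1 and NAP1L4. Its level of CD81, a tetraspanin, was 138 CPM and that of CTSD, which encodes a lysosomal protease, was 75.3 CPM, within 83.8 to 208 CPM and 33.2 to 355 CPM over the 18 libraries. The counting is not stated to have used strand, so reads of IGF2 and of any gene that overlaps it on the other strand could not be told apart. H19, the noncoding RNA of the same imprinted domain, was not analysed here.

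The signaling genes downstream of IGF1R had a median rank of 12.5 from the highest of 18 in the library with abundant IGF2. Of the 24 intracellular genes tested, from IRS1 to FOXO4, French bulldog 1 was the highest library for 0 and the lowest for 1. The latter was IRS2, an insulin receptor substrate, at 17.6 CPM. French bulldog 1 ranked from 3 to 18 over the 24 genes, and these ranks were not tested. IGF1R itself was 73.4 CPM in that library, below the median of 109 CPM for the 11 French bulldogs. IGF2R was 91.3 CPM, the second highest value of the 18. Among genes with a symbol, the 5 furthest above the median of the other libraries in French bulldog 1 were IGF2, ATP1B4, SIM1, HOXD8 and CAPN6. ATP1B4, which encodes a muscle protein related to the sodium pump, held 222 counts there and at most 1 elsewhere. SIM1, a transcription factor of the developing hypothalamus, held 133 counts there and 0 elsewhere. HOXD8 held 124 counts there but 423 in French bulldog 11, and CAPN6 held 569 there and 553 in Boston terrier 2, so neither was particular to it.

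IGF1 (ENSCAFG00000007304), the ligand that mediates growth hormone action and that brain macrophages also make, was scarce. French bulldogs held 0 to 24 counts, with a lowest level of 0, a median of 0.414 CPM and a highest of 2.13 CPM. The boxers held 1.80, 0.274, 2.19 and 2.05 CPM, and the Boston terriers held 1.41, 1.75 and 1.49 CPM. In 10 of 11 French bulldogs IGF1 lay below the comparison median, although the ranges overlapped, with boxer 3 among the lowest libraries and French bulldog 7 among the highest. Mean levels were 0.805 ± 0.724 CPM (SD, n = 11) and 1.57 ± 0.634 CPM (SD, n = 7). The log2 fold change was −0.93 ± 0.58 (SE) and did not pass the test (edgeR, adjusted p = 0.568). French bulldog 6, in which 7 of 9 macrophage and microglia markers were the highest of all libraries and CX3CR1 the lowest, held 4 counts of IGF1, or 0.414 CPM.

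Among the receptors, IGF1R (ENSCAFG00000010881) was well counted in every library except French bulldog 6. French bulldogs ranged from 10.8 to 184 CPM with a median of 109 CPM. The boxers held 167, 89.4, 49.9 and 96.9 CPM, and the Boston terriers held 131, 112 and 82.5 CPM. The lowest value, 104 counts, was that of French bulldog 6, and no other library held under 525. IGF2R (ENSCAFG00000000691) ran the other way. It was 180 CPM in French bulldog 6 and 40.8 to 91.3 CPM in the other 17 libraries, so the library without oligodendrocyte lineage transcripts had the least IGF1R and the most IGF2R of all 18. In the remaining French bulldogs IGF2R reached 45.7 to 91.3 CPM, in boxers 65.9, 61.2, 84.2 and 46.4 CPM, and in Boston terriers 50.8, 66.6 and 40.8 CPM. The log2 fold change of IGF2R was 0.43 ± 0.24 (SE) with all libraries and 0.27 without French bulldog 6, and that of IGF1R was 0.15 ± 0.36 (SE) and 0.31 without it. Neither receptor passed the test (edgeR, adjusted p = 0.518 for IGF2R and 0.915 for IGF1R). Summed astrocyte (50.0 CPM) and neuronal markers (0.828 CPM) were also the lowest of all libraries in French bulldog 6. T cell markers (75.4 CPM), mitosis genes (1540 CPM) and hypoxia genes (1707 CPM) were the highest there. The part of the macrophage content, or of these other differences, in the receptor values was not tested.

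**Figure D1:**
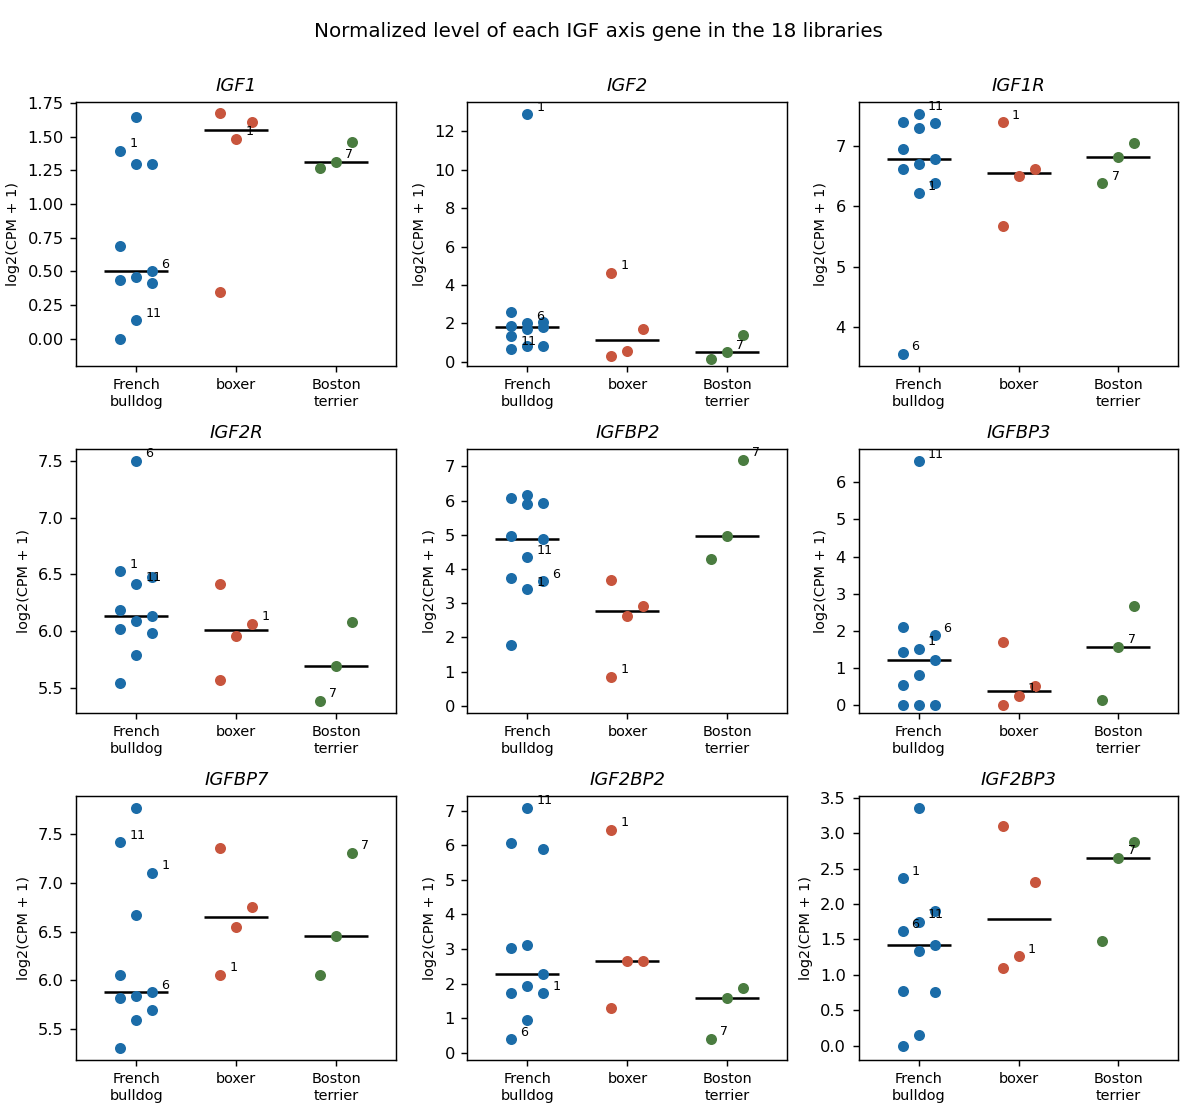
Normalized level of each of the 9 genes on a scale of log2(CPM + 1), with 1 point per library, grouped by breed, and a bar at the median of each breed. The numbers mark French bulldogs 1, 6 and 11, boxer 1 and Boston terrier 7. IGF2 in French bulldog 1 and IGFBP3 in French bulldog 11 sit far above all other points of their panels, and IGF1R and IGF2R of French bulldog 6 lie at opposite ends of theirs.

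IGFBP7 (ENSCAFG00000002330), a binding protein of low affinity that is secreted by blood vessels, was present in all tumors. French bulldogs held 38.6 CPM at the lowest, 57.7 CPM at the median and 217 CPM at the highest. The boxers held 65.5, 163, 92.8 and 107 CPM, and the Boston terriers held 86.5, 65.6 and 157 CPM. In 7 of 11 French bulldogs the level lay below that of every comparison library, while in French bulldogs 3 and 11 it lay above all of them. The means were 90.5 ± 59.0 CPM (SD, n = 11) and 105 ± 40.2 CPM (SD, n = 7), and the log2 fold change of −0.22 ± 0.35 (SE) did not pass the test (edgeR, adjusted p = 0.862).

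IGFBP3 (ENSCAFG00000012294), the main carrier of IGF in blood, was nearly absent apart from 1 tumor. French bulldog 11 held 946 counts, or 93.5 CPM, which was 80.6% of the sum over the 18 libraries. The other 10 French bulldogs held 0 to 3.31 CPM with a median of 1.05 CPM. The boxers held 0.200, 2.28, 0 and 0.431 CPM, and the Boston terriers held 0.0939, 5.34 and 1.98 CPM. In 6 of 18 libraries IGFBP3 lay under 3 counts. The log2 fold change was 2.68 ± 1.46 (SE), which did not pass the test (edgeR, adjusted p = 0.514), and it turned to −0.28 when French bulldog 11 was left out. In that library PAPPA, a protease that releases IGF from its binding proteins, was also the highest of the 18, with 302 counts.

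IGFBP2 (ENSCAFG00000014490), the binding protein of the fetal brain and of many gliomas, did not overlap between the breeds that were pooled in the comparison group. The boxers held 0.799, 5.20, 11.8 and 6.58 CPM, and the Boston terriers held 18.5, 30.5 and 145 CPM. Every boxer thus lay below every Boston terrier, a separation shared by 7.24% of the 17934 genes tested between breeds. French bulldogs spanned both groups, from 2.46 to 71.1 CPM with a median of 28.4 CPM, and 8 of 11 lay above every boxer. The log2 fold change of boxers over Boston terriers was −3.41 ± 1.02 (SE), with an unadjusted p-value of 0.0036 in the edgeR test and an adjusted p-value of 1. Without Boston terrier 7 it was −2.01 ± 1.00 (SE) and the unadjusted p-value was no longer under 0.05. French bulldogs exceeded boxers by 2.47 ± 0.87 (SE) on the log2 scale, again with an unadjusted p-value (0.0109) that did not survive adjustment (edgeR, adjusted p = 0.592). Against the pooled comparison group, whose arithmetic mean was 31.2 ± 51.1 CPM (SD, n = 7), the mean of French bulldogs was 33.7 ± 25.6 CPM (SD, n = 11). The fitted log2 fold change of 0.11 ± 0.76 (SE) was 1.46 when Boston terrier 7 was left out, and it did not pass the test in either fit (edgeR, adjusted p = 0.977 with all libraries).

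IGF2BP2 (ENSCAFG00000013297) was either low or high. It was 134 CPM in French bulldog 11, 66.4 and 57.9 CPM in French bulldogs 2 and 8, which share a case label, and 85.7 CPM in boxer 1. The other French bulldogs held 0.311 to 7.69 CPM, the other boxers 1.46, 5.33 and 5.29 CPM, and the Boston terriers 1.97, 2.67 and 0.331 CPM. High libraries were therefore found in both arms, and none was a Boston terrier. The log2 fold change was 0.82 ± 1.17 (SE), 0.04 without French bulldog 11 and 3.20 without boxer 1, and did not pass the test in any of these fits (edgeR, adjusted p = 0.839 with all libraries).

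IGF2BP3 (ENSCAFG00000002766) was scarce in most libraries. French bulldogs held 0 to 9.26 CPM with a median of 1.67 CPM, and French bulldogs 2 and 8, in which IGF2BP2 was high, held 1 and 0 counts. The boxers held 1.4, 7.57, 1.14 and 3.99 CPM, and the Boston terriers held 1.78, 6.34 and 5.29 CPM. In 9 of 11 French bulldogs the level lay below the comparison median, and in 4 it lay below every comparison library, while French bulldog 3 was the highest of all 18. Its log2 fold change of −0.77 ± 0.69 (SE) did not pass the test (edgeR, adjusted p = 0.707). The third gene of the family, IGF2BP1, held at most 10 counts and was not tested.

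Across the 8 members other than IGF2, 0 passed an adjusted p-value of 0.05 for French bulldogs against the comparison group in the edgeR test, where 1 of the 16495 genes did (0.00606%). None of the 8 reached an unadjusted p-value under 0.05, which 10.6% of all genes did, and 0 of them separated the arms without overlap, as 0.0606% of all genes did. By the DESeq2 Wald test, which called 0.259% of the genes that it adjusted and gave 9.62% of all genes an unadjusted p-value under 0.05, 0 of the 8 passed and 0 were under 0.05 unadjusted, and the same counts of 0 came from limma-voom, which called 0.0121% of all genes and gave 9.31% an unadjusted p-value under 0.05. Without French bulldog 6 the edgeR test called 0.0183% of genes and gave 10.8% an unadjusted p-value under 0.05, and with French bulldogs 2 and 8 summed it called 0% and gave 9.56%. In both fits 0 of the 8 members were called and 0 had an unadjusted p-value under 0.05. In 5 other fits 1 member had one, beside 4.94% to 10.5% of all genes. These were IGF2R without French bulldog 5 (10.5%) or without boxer 4 (9.05%), IGF2BP2 without boxer 1 (8.72%), IGFBP3 without Boston terrier 6 (7.79%), and IGFBP2 against comparison libraries 18 to 21 alone (4.94%). The median log2 fold change of the 8 was 0.13, beside 0.04 for all genes tested, with 5 higher and 3 lower in French bulldogs. The smallest adjusted p-value that any of them gave over 33 choices of test, normalization, filter and libraries was 0.426.

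**Figure D2:**
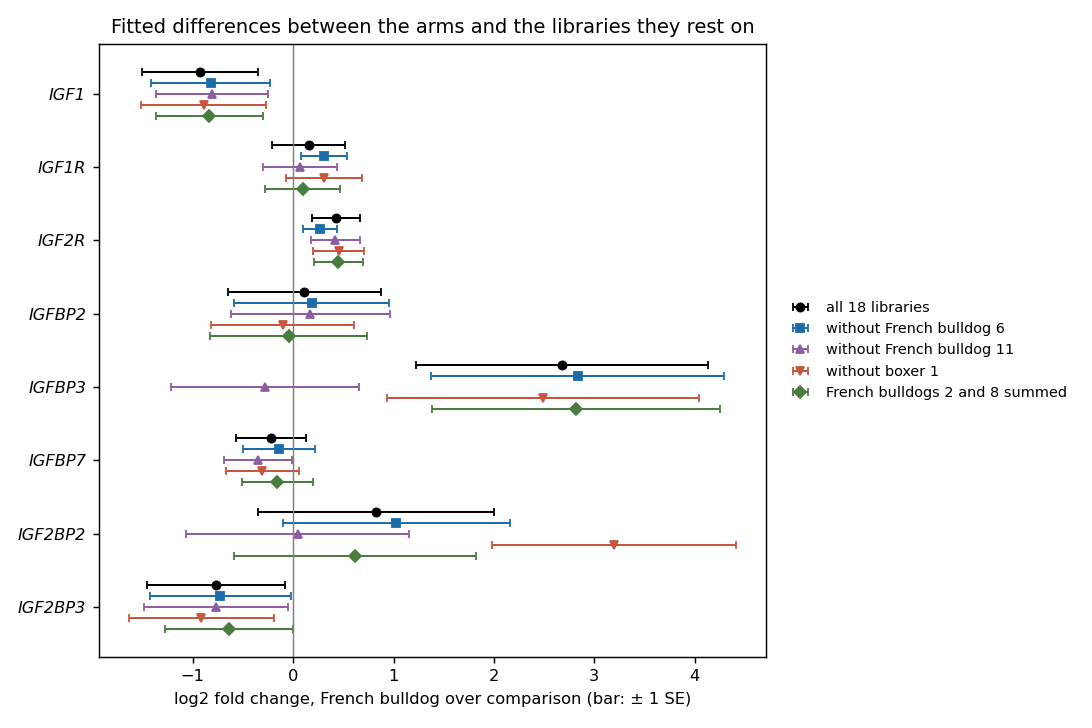
Fitted log2 fold change of French bulldogs over the comparison group for the 8 members other than IGF2, with bars of 1 SE, for all 18 libraries and with single libraries left out or French bulldogs 2 and 8 summed. Without French bulldog 11 the value of IGFBP3 moves from 2.68 to −0.28, and without boxer 1 that of IGF2BP2 moves from 0.82 to 3.20, each further than its own bar of 1 SE.

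Taken breed by breed, the order of mean levels differed between members, and no neighbouring pair of breeds differed past the adjusted threshold for any of the 8. IGF1 and IGFBP7 had their highest mean in boxers, IGF1R and IGF2R in French bulldogs, IGFBP2 and IGF2BP3 in Boston terriers, and IGFBP3, through French bulldog 11, in French bulldogs. Several of these orders turned when 1 library was left out. The order of IGF1 in boxers and Boston terriers turned without boxer 1, 4 or 5 or Boston terrier 2 or 7 (log2 fold change 0.02 with all libraries, −0.20 to 0.37 with 1 left out), and that of IGFBP7 without boxer 3 or Boston terrier 2 or 6 (0.05, and −0.23 to 0.49). The order of IGF1R in French bulldogs and Boston terriers turned without Boston terrier 7 (0.10 to −0.067). That of IGFBP2 rests on Boston terrier 7, without which the log2 fold change of French bulldogs over Boston terriers went from −0.94 to 0.46. IGF2BP2 was 26 ± 43.0 CPM (SD, n = 11) in French bulldogs and 24.4 ± 40.9 CPM (SD, n = 4) in boxers, and 1.66 ± 1.20 CPM (SD, n = 3) in Boston terriers. Between boxers and Boston terriers 2.12% of all genes had an unadjusted p-value under 0.05 in the edgeR test and 0 passed adjustment, and IGFBP2 was the only member among the former. Between French bulldogs and boxers these were 8.26% and 0, again with IGFBP2 as the only member with an unadjusted p-value under 0.05, and 0 of the 8 members separated the breeds without overlap, as 0.53% of all genes did. Between French bulldogs and Boston terriers they were 3.84% and 1 gene (0.00558%), and 0 of the 8 members were among them or separated the breeds without overlap, as 0.781% of all genes did. By DESeq2, 0 of the 8 passed adjustment in any pair of breeds, where it called 0% of genes between boxers and Boston terriers, 0.111% between French bulldogs and boxers and 0.0295% between French bulldogs and Boston terriers. Its unadjusted p-value was under 0.05 for IGFBP2 and IGF2BP2 in the first of these pairs (2.92% of all genes), for IGFBP2 in the next (8.42%) and for IGF2BP2 in the last (4.59%).

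The remaining genes of the pathway held no gene past the test. Of 13 other extracellular members and regulators of the family, 11 matched and 4 were counted well enough to be tested, and none passed adjustment or reached an unadjusted p-value under 0.05. These were INSR, the insulin receptor, with a log2 fold change of −0.46 ± 0.30 (SE), IGFBP4 with −0.20 ± 0.20 (SE), IGFBP6 with −0.42 ± 0.65 (SE) and PAPPA with 0.11 ± 0.52 (SE). The sign of PAPPA turned without French bulldog 11 (−0.47), and that of IGFBP6 turned without boxer 1 (0.16). Of the 28 genes listed for intracellular signaling, 25 matched and 24 were tested, with positive values for 12, negative values for 12 and a median log2 fold change of −0.01. None passed adjustment, and 2 had an unadjusted p-value under 0.05, a share of 8.33% beside 10.6% of all genes tested. TSC2, a brake on mTOR, had a log2 fold change of −0.34 ± 0.15 (SE), and EIF4EBP1, the translation repressor that mTOR inactivates, had −0.66 ± 0.31 (SE). Without French bulldog 6 neither was under 0.05, with log2 fold changes of −0.27 for TSC2 and −0.62 for EIF4EBP1, and 1 of the 24 genes was. Of the 8 genes known to act on IGF2 or IGF2BP expression, 7 matched and 4 were tested. With all libraries the 4 had positive log2 fold changes and none passed. That of HMGA1 was 0.76 ± 0.40 (SE) and 0.51 without either French bulldog 2 or French bulldog 8, the libraries with its highest levels. PLAG1 went from 0.34 to −0.09 without French bulldog 9, PLAGL1 from 0.62 to 0.14 without French bulldog 6, and CTCF was 0.22.

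Relations with cell type markers and processes were computed over 16 cases, without French bulldog 6 and with French bulldogs 2 and 8 summed. The 5 pairs of a member and a list were tested by permutation. IGFBP7 was correlated with the mean log2 CPM of 8 endothelial markers, with Spearman's rho of 0.953 and Pearson's r of 0.917. Both held after adjustment (permutation test, adjusted p = 5e-05, which rests on the smallest p-value that 100000 permutations can give). Without the 2 cases farthest from the median of the endothelial markers r was 0.920. Within the arms rho was 0.917 in the 9 French bulldog cases and 0.929 in the 7 comparison libraries (exact permutation test, adjusted p = 0.00656 and 0.0337), and r was 0.957 and 0.769 (exact permutation test, adjusted p = 0.00123 and 0.137). The 3 genes with a symbol most like IGFBP7 in rank, PECAM1, NID1 and COL3A1, had rho of 0.974, 0.968 and 0.959. PECAM1 is an endothelial adhesion molecule and one of the markers in the list, NID1 a basement membrane glycoprotein and COL3A1 a fibrillar collagen.

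IGFBP3 was correlated with the mean of 12 hypoxia genes, which encode glycolytic enzymes, glucose transport and VEGFA among others. It lay under the floor of 3 counts in the case of French bulldogs 2 and 8, French bulldog 5, boxers 1 and 4 and Boston terrier 2. Spearman's rho was 0.602 and r was 0.627 (permutation test, adjusted p = 0.0395 and 0.0191), and r without the 2 farthest cases was 0.604. The rank relation did not pass within either arm, with rho of 0.594 in the French bulldog cases (exact permutation test, adjusted p = 0.246) and 0.643 in the comparison libraries (exact permutation test, adjusted p = 0.347). In the French bulldog cases r was 0.748 and passed (exact permutation test, adjusted p = 0.034), and it was 0.347 without French bulldog 11 and the case of French bulldogs 2 and 8. The rank relation over all 16 cases passed only while each of French bulldogs 4, 5, 7, 9 and 11, the case of French bulldogs 2 and 8, boxers 3 and 5, and Boston terriers 2, 6 and 7 was kept, since leaving out any of them gave an adjusted p-value between 0.0523 and 0.109, with rho still between 0.533 and 0.599. IGFBP2 tended to be low where 6 astrocyte markers were high, with rho of −0.494 and r of −0.55 (permutation test, adjusted p = 0.0922 and 0.0481), and r was −0.258 without the 2 farthest cases, so it rests on those cases. IGF1 had rho of 0.0882 with macrophage and microglia markers and IGF2BP3 had rho of −0.00294 with mitosis genes (permutation test, adjusted p = 0.933 and 0.995).

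**Figure D3:**
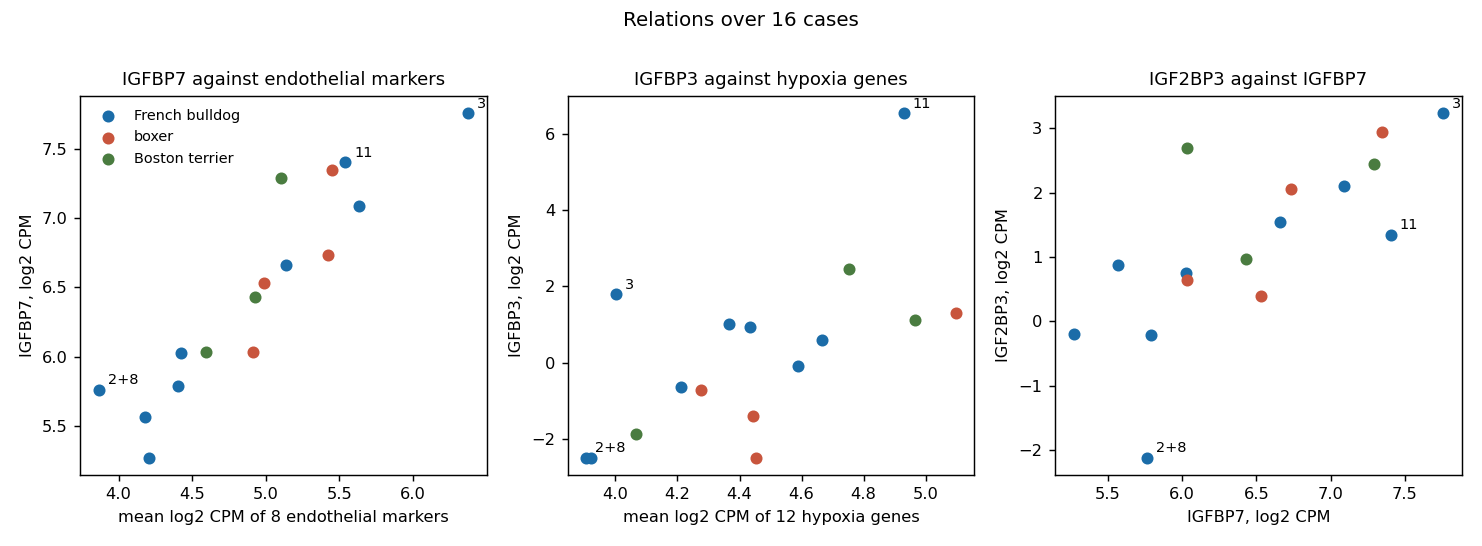
Each point is 1 of 16 cases, colored by breed, and both axes are log2 CPM. IGFBP7 against the endothelial markers follows a narrow band with French bulldog 3 at the top of both axes. IGFBP3 against the hypoxia genes is led by French bulldog 11, and IGF2BP3 against IGFBP7 has the case of French bulldogs 2 and 8 at its lower end.

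Among themselves the members formed 36 pairs, and 2 of these passed by rank. IGF2BP3 had rho of 0.779 with IGFBP7 and of 0.764 with IGFBP3 (permutation test, adjusted p = 0.0182 for both), with r of 0.722 and 0.561 (permutation test, adjusted p = 0.0486 and 0.255). Without the 2 cases farthest from the median of IGF2BP3, r was 0.686 and 0.478. Leaving out the case of French bulldogs 2 and 8, where IGF2BP3 was lowest, moved the adjusted p-values of the permutation test to 0.0536 and 0.0562. Whichever single case was left out, rho was at least 0.732 with IGFBP7 and 0.720 with IGFBP3. Spearman's rho within the French bulldog cases was 0.767 and 0.753, and within the comparison libraries 0.50 and 0.929, with 0 of these values past adjustment by exact permutation. IGFBP3 and IGFBP7 had rho of 0.658 (permutation test, adjusted p = 0.0822). Within the French bulldog cases this pair alone passed, with rho of 0.937 (exact permutation test, adjusted p = 0.0179) and r of 0.768, which did not (exact permutation test, adjusted p = 0.158).

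**Figure D4:**
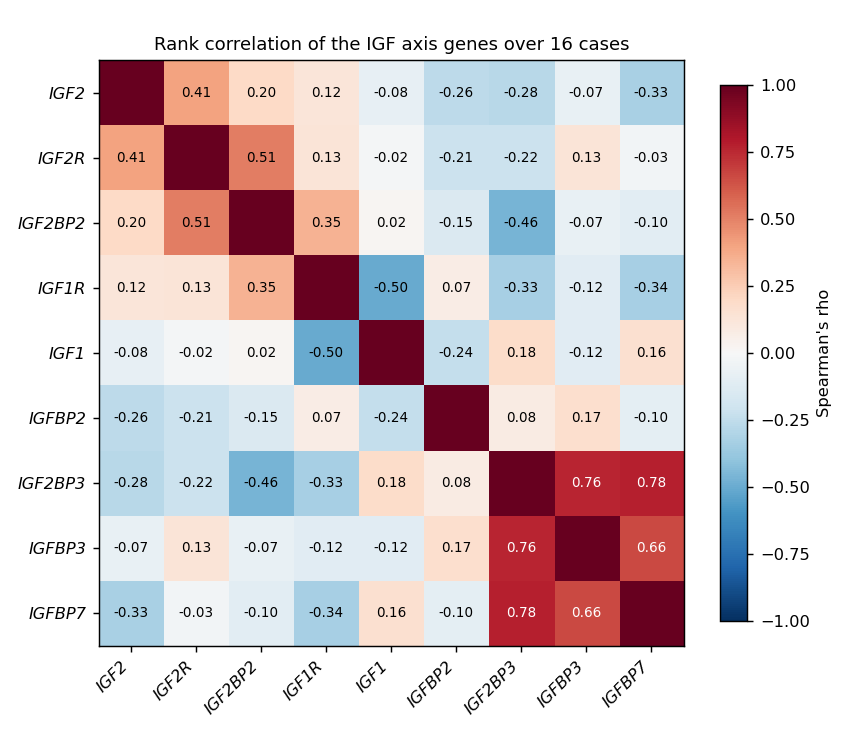
Spearman's rho for each pair of the 9 members over the 16 cases, with red for positive and blue for negative values. IGF2BP3, IGFBP3 and IGFBP7 form a block with rho of 0.658 to 0.779, and no pair that includes IGF2, IGF1 or IGFBP2 exceeds 0.406.

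The genes with a symbol whose ranks lay nearest to the other members were given as a description over the same 16 cases. For IGF2BP3 they included PCDH18, a protocadherin, and ADAMTS7, a secreted protease, with rho of 0.900 and 0.891. For IGFBP3 they were TPM4, a tropomyosin, WWC2 and BCL10, with rho of 0.897, 0.850 and 0.832, and for IGFBP2 they were CHST11, a chondroitin sulfotransferase, TXNRD1 and TMEM185B, with rho of 0.871, 0.862 and 0.859. IGF1 was closest to SPTAN1, a spectrin, with rho of 0.800, and IGF2 was closest to FAM135A with rho of 0.782, the lowest first value of these members.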

How the data were processed

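RNASeq reads of 18 canine HGO libraries were trimmed, mapped and counted by the authors, who deposited counts of reads per gene, not normalized, for 29993 genes, of which 16324 had a symbol. The submitters' processing notes name Trimmomatic 0.33, FastQC, HISAT2 2.1.0, featureCounts and DESeq2. The genome was canFam6 and the strand setting of the counting is not given in the sources used here. Groups came from the breed in the labels. The members and all gene lists were chosen with earlier results of these data known.

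The main test was edgeR 4.0.16 (R 4.3.3): quasi-likelihood F test, robust, TMM normalization, filterByExpr, two-sided, Benjamini-Hochberg adjustment over all genes tested, threshold 0.05. The authors used DESeq2, which was run here as an alternative (1.42.0), as was limma-voom (limma 3.58.1). A second fit had 3 breed groups. The SE was taken from the fold change (log2) and the F value, as their quotient after taking the root of F. Levels are CPM of the library total times the TMM factor, and log2 CPM for relations used a prior count of 2. Relations used 100000 permutations, or all permutations below 10 cases, adjusted over 5 pairs with lists and 36 pairs of members, since the planned pairs with IGFBP5 could not be formed. P-values measure the spread between libraries. The study describes each library as a separate dog, while the library names of French bulldogs 2 and 8 share a case label. The floor of 3 counts covers counting error only.

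All members are reported. Genes of a list could be named if they passed the test or had one of the 4 smallest p-values in it, and some of these are named, with the genes nearest in rank to 6 members (up to 3 each, of which 1 is not reported here) and the 5 genes furthest above the other libraries in French bulldog 1. The lists tested gave, as genes with an unadjusted p-value under 0.05 of those tested in French bulldogs against the comparison group, 0 of 4 other family members, 2 of 24 signaling genes, 0 of 4 genes acting on IGF2 or IGF2BP, 1 of 6 genes beside IGF2, 7 of 14 mitosis genes, 1 of 12 hypoxia genes, 0 of 8 oligodendrocyte lineage, 0 of 6 astrocyte, 0 of 7 neuronal, 4 of 9 macrophage and microglia, 0 of 8 endothelial, 0 of 8 mural and stromal, 1 of 1 T cell and 0 of 3 meningeal markers, with 0 past adjustment in every list, beside 10.6% of all genes under 0.05 unadjusted. Without French bulldog 6 these counts became 1 of 24 signaling genes, 0 of 6 genes beside IGF2, 2 of 14 mitosis genes, 1 of 8 oligodendrocyte lineage, 0 of 9 macrophage and microglia and 0 of 1 T cell markers, and the others were as before. Gene order beside IGF2 was taken from general knowledge of mammals, and no coordinates or sequences were used. The code was tested on simulated data with 200 changed genes. Figures were made with Python 3.11.15 and matplotlib 3.10.9.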

Additional observations from a re-analysis of the deposited data

Results flagged for a closer look

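In each breed and arm of 4 to 10 libraries, the highest or lowest library was compared with its nearest neighbour by Dixon's ratio of that gap to the whole range. Of 18 groups tested, 7 exceeded the 95% critical value. Chance flags about 1 in 20 groups of normally distributed values, a rate that need not hold for CPM, which are skewed, and the boxers are part of the comparison group, so the count of 7 is a description. Boxer 1 accounts for 4 of them, which are 2 genes each seen in both groups. Its IGF2 of 24.1 CPM lay above the next value of 2.28 CPM, with a ratio of 0.914 among boxers and 0.909 in the comparison group. Its IGF2BP2 of 85.7 CPM lay above the next value of 5.33 CPM, with a ratio of 0.954 among boxers and 0.941 in the comparison group.

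Boston terrier 7 stood apart for IGFBP2 in the comparison group, with 145 CPM against a next value of 30.5 CPM and a ratio of 0.794. Boston terrier 6 stood apart for IGFBP3, with 5.34 CPM against 2.28 CPM and a ratio of 0.573. Boxer 3 was the lowest for IGF1, with 0.274 CPM against 1.41 CPM and a ratio of 0.593. The French bulldogs, of which there are 11, were too many for this comparison, so IGF2 in French bulldog 1 and IGFBP3 in French bulldog 11 were not put to it.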

How the results depend on the processing

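No member other than IGF2 passed the adjusted threshold in any alternative run, with 259 values over 33 settings for French bulldogs against the comparison group (smallest adjusted p = 0.426 over edgeR, DESeq2 and limma-voom) and 184 values over 23 settings for each pair of breeds. Over all genes, the count called for French bulldogs against the comparison group was 1, and became 58 with DESeq2, 2 with limma-voom, 2 with upper quartile normalization and 0 with at least 10 counts in every library, with French bulldogs 2 and 8 summed, or with either series of comparison libraries (numbers 18 to 21, or 1 to 3) alone. Of the alternatives chosen after seeing the data, DESeq2 without French bulldog 6 gave 76, and leaving it out while summing 2 and 8 gave 0. With single libraries left out the count by edgeR was 0 to 7, the 7 without French bulldog 9. DESeq2 called 23 genes for French bulldogs against boxers and 8 against Boston terriers, where edgeR called 0 and 1. Leaving out single libraries in the edgeR fit gave 0 to 2 in each, with 2 without boxer 4 and without Boston terrier 7. DESeq2 was not run with single libraries left out for pairs of breeds.

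Labels number the libraries of both arms, but same-numbered libraries did not deviate together (correlations of −0.50 to 0.21 over 7 pairs), so the numbers share only a name. With the replicate block over numbers 1 to 7 the count was 0, against 5 in the same 14 libraries with no block. IGF1R became −0.15 and IGF2BP2 −0.54 with the block. Without it in those libraries IGF2BP2 was −0.38 and IGFBP3 −0.10, where French bulldog 11 does not enter.

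Other log2 fold changes that turned sign were IGF1R with limma-voom (−0.016), IGFBP2 with 2 and 8 summed (−0.044) or against libraries 1 to 3 alone (−0.88), IGF2BP2 over boxers with 2 and 8 summed (−0.12), IGFBP3 over Boston terriers with DESeq2 (−1.01), and IGF1 of boxers over Boston terriers with no filter (−0.0095). The cause was not tested. Leaving out single libraries, French bulldogs over the comparison group ranged from −0.91 to 9.62 for IGF2, −0.11 to 1.46 for IGFBP2 and −0.28 to 3.50 for IGFBP3. Boxers over Boston terriers ranged from −0.20 to 0.37 for IGF1, −0.47 to 0.10 for IGF1R and −0.23 to 0.49 for IGFBP7. French bulldogs over boxers ranged from −1.60 to 9.41 for IGF2, −0.69 to 2.69 for IGF2BP2, −1.12 to 0.087 for IGF2BP3 and −0.46 to 0.037 for IGFBP7. French bulldogs over Boston terriers ranged from −0.067 to 0.26 for IGF1R, −1.38 to 0.46 for IGFBP2, −1.02 to 3.17 for IGFBP3 and −0.43 to 0.25 for IGFBP7.

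Of the relations with lists 2 passed by rank, 1 in French bulldog cases alone and 1 in comparison libraries alone, and 1 to 3 with single cases left out. Of the member pairs 2 passed, then 1, 0 and 0 to 3, the 0 without the case of French bulldogs 2 and 8. In comparison libraries alone rho of IGF1 with macrophages was −0.14 and of IGF2BP3 with mitosis 0.036. With single cases left out these ranged from −0.057 to 0.29 and from −0.16 to 0.21. Other scalings shifted the median of all genes by −0.07 to 0.02 (log2). With at least 10 counts in every library 3 members, IGF1R, IGF2R and IGFBP7, gave a value. Depth limits IGF1, IGF2, IGF2BP3 and IGFBP3, which lay under 3 counts in some libraries.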

Other observations

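HMGA1 and HMGA2, chromatin proteins of which HMGA2 is known to promote transcription of IGF2BP2, were looked at beside IGF2BP2 after the values were seen. HMGA2 held 120 counts in French bulldog 11 and 11 in boxer 1, the highest and second highest libraries for IGF2BP2, and at most 4 in the other 16, which is too low for a test. In French bulldogs 2 and 8, where IGF2BP2 was also high, HMGA2 held 2 and 4 counts and HMGA1 was 58.5 and 59.4 CPM, against 5.21 to 20.9 CPM in the other libraries. These are 3 cases in all, and no relation was tested.

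KCNQ1 is a potassium channel gene of the imprinted region beside IGF2. It reached 1477 counts in French bulldog 6 and at most 150 elsewhere, in French bulldog 1. Its log2 fold change of French bulldogs over the comparison group was 1.84 ± 0.86 (SE) and did not pass (edgeR, adjusted p = 0.466), and it was 0.14 without French bulldog 6. LSP1, CTSD and CD81 of the same list were also highest by CPM in French bulldog 6, in which 7 of 9 macrophage and microglia markers were the highest of all libraries, and IGF2 was 3 CPM there.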
